A study of Homo sapiens with 6 samples.

Results

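The gain of miR-638 was examined in 4 of the 6 arrays of the series: 2 arrays of SK-Mel-147 cells transfected with miR-638 and 2 arrays of mock cells, all read 48 h after transfection. The members were taken from the labels, not from measured values. SK-Mel-147 is an established human melanoma line, kept here in DMEM with serum, so every value comes from a single cell line in culture. The miR-638 cells received a mimic, a synthetic copy of the microRNA. What the mock cells received is given differently from source to source: mock transfection in the titles, the reagent alone or with a miRNA mimic in the treatment notes, a non-targeting control in the design text, and an antagomiR control in the legend of the study. These kinds of control cannot be told apart here, and the cells are called mock after the titles. The other 2 arrays of the series, of cells given antagomiR-638, entered only the shared estimate of the spread. Nothing in the labels says that the 2 arrays of a group came from separate cultures, so the p-values measure only how far these samples vary, and that variation may be technical.

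A microRNA is a short RNA that an Argonaute protein carries to messenger RNAs, where it pairs mainly through its seed, the bases near its 5′ end. Paired messenger RNAs are translated less and broken down, so direct targets of a mimic are looked for among the transcripts that fall. miR-638 lies within the gene DNM2, which encodes the membrane-cutting GTPase dynamin 2. The mature sequence is shown because it is the agent that the miR-638 cells received, with the seed, bases 2 to 8, in capitals. RefSeq places it at chr19:10718419-10718443 on the plus strand of GRCh38.p14.
hsa-miR-638: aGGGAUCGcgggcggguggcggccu
EGR1 had the largest change, and chemokine, stress and interferon-stimulated genes were among those that rose, as given below. A promoter window from RefSeq, 250 bases before to 50 bases after the first listed start, was searched on both strands for 7 known motifs, and no site shown overlapped a motif of another kind. The sites below, in capitals within 30 bases read along the gene, are shown because they lie in the windows of genes that carry the results. Genes of the same groups whose windows held no such site are not shown. All lie before the start except that of MX1, which lies shortly after it. The EGR1 promoter held 2 CArG boxes, the site of serum response factor, 105 and 83 bases before the start (chr5:138465364-138465393 and chr5:138465386-138465415, plus strand).
EGR1, CArG box: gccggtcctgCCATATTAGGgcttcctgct
EGR1, CArG box: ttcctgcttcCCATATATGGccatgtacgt
The chemokine genes CXCL2 (chr4:74099254-74099283, minus strand), CXCL5 (chr4:73998749-73998778, minus strand) and CCL20 (chr2:227813753-227813782, plus strand) and the feedback gene TNFAIP3 (chr6:137867182-137867211, plus strand) held at least 1 NF-kB site, of which the first is shown.
CXCL2, NF-kB site: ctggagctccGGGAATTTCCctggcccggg
CXCL5, NF-kB site: catgagttcaGGGAATTTCCccagcatccc
CCL20, NF-kB site: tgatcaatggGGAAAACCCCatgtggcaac
TNFAIP3, NF-kB site: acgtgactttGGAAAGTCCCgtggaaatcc
CHAC1 (chr15:40953251-40953280, plus strand) and ASNS (chr7:97872457-97872486, minus strand) held a CARE, the C/EBP and ATF response element bound by ATF4, and IFI27 (chr14:94110618-94110647, plus strand) and MX1 (chr21:41420559-41420588, plus strand) an ISRE, the interferon-stimulated response element.
CHAC1, CARE: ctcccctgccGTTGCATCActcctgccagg
ASNS, CARE: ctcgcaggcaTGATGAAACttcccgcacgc
IFI27, ISRE: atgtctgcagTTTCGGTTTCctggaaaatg
MX1, ISRE: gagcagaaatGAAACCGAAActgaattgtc

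Each array held 47319 probes, of which 19794 and 20890 were detected with miR-638 and 20426 and 20185 in mock cells. Array intensity is given on a linear scale that includes an offset of 16, and the dimmest detected probes read 24.2 and 23.4 with miR-638 and 23.7 and 23.9 in mock cells. Probes detected (p-value under 0.05) on both miR-638 arrays or both mock arrays were kept, which left 19323 probes and 11180 named genes. Across kept probes, which are not independent replicates, the 2 arrays of a group correlated at r = 0.994 in miR-638 and in mock cells, and arrays of the 2 groups at 0.985 to 0.987. The melanoma markers were only partly present: SOX10, the transcription factor of the neural crest lineage, read 1083 and 1150 with miR-638 and 1062 and 1311 in mock cells, whereas the pigment genes PMEL, MLANA, TYR and TYRP1 were detected on none of the 4 arrays. Of the markers of dedifferentiated melanoma cells, the receptor AXL read 2973 and 2759 with miR-638 and 2840 and 3114 in mock cells, whereas NGFR read 45.6 and 58.2 with miR-638 and 80.6 and 85.1 in mock cells, and WNT5A 157 and 166 with miR-638 and 243 and 262 in mock cells. The arrays of the groups did not overlap for NGFR and WNT5A, nor did they for 58.6% of all kept genes. None of AXL, NGFR and WNT5A was called. EGFR and VIM were also detected on all 4 arrays, and FN1 was not kept. Of the other melanoma markers MITF and MCAM were detected on all 4 arrays and CSPG4 on 1 miR-638 and both mock arrays. S100B was not detected, and none of these genes was called. Among markers of other cell types LUM of fibroblasts (448 and 456 with miR-638, 574 and 579 in mock cells), KRT10 of keratinocytes (1180.4 and 1146 with miR-638, 1033 and 1127 in mock cells) and CD68 (1944 and 2242 with miR-638, 1949.7 and 1829 in mock cells) and CD14 (29.7 and 37.4 with miR-638, 35.3 and 40.2 in mock cells) of leukocytes were detected on all 4 arrays. The groups did not overlap for LUM, lower with miR-638, and KRT10, higher with miR-638, and none of these 4 genes was called. PTPRC, CD3E, ITGAM, KRT5, KRT14, KRT1, CDH1, DSG3 and the 4 endothelial markers were not detected. Of the other fibroblast markers, COL1A2, COL3A1 and PDGFRB were not detected, and COL1A1 and DCN were on 1 miR-638 array each. LYZ was detected on 1 mock array alone, and none of COL1A1, DCN and LYZ was kept. The part of other cells in the results was not tested. The probe for the miR-638 gene was not kept, so these arrays do not check the gain of miR-638 itself. DNM2, the host gene, read 46.1 and 49.2 with miR-638 and 49.3 and 44.8 in mock cells, so the arrays overlapped.

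With miR-638, 230 genes rose (2.06% of 11180) and 139 fell (1.24%) at an adjusted p of 0.01 or less (limma, moderated test of the log2 difference, Benjamini-Hochberg over all kept probes). The rises were also larger: 99 genes rose (0.886%) and 38 fell (0.34%) by at least 2-fold, and 10 genes rose (0.0894%) and 0 fell by at least 4-fold, while the median change of all genes was 0.00 on the log2 scale. At an unadjusted p under 0.05 (limma) there were 1718 higher (15.4%) and 1548 lower genes (13.8%). The counts of the lists below are to be read beside these shares of all genes. The arrays of the 2 groups did not overlap for any of the 369 called genes, but they did not for 58.6% of all genes either, and a called change measured at least 0.64 on the log2 scale. The calls were spread over the range of levels, with 21 rises and 14 falls in the dimmest of 4 equal groups of genes (mean intensity under 52.8) and 55 and 30 in the brightest (over 502). Of the 369, 51 stayed called whichever of the 6 arrays was left out, 42 of them rises. Left out 1 at a time, the arrays gave 75 rises and 23 falls without mock replicate 1, 72 and 15 without mock replicate 2, 66 and 14 without miR-638 replicate 1, 49 and 16 without miR-638 replicate 2, and 106 and 47 without either antagomiR-638 replicate. Leaving out 1 array cut the residual degrees of freedom of the fit from 3 to 2. Without either antagomiR-638 replicate the fit was that of the 4 miR-638 and mock arrays alone, so these 2 are not separate checks. Leaving out a miR-638 or mock array also left 1 array in its group, so a lost call does not single out that array. The same linear model with each probe's own spread and no moderation called 0 genes either way, so the counts rest on the spread that limma shares between probes.

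**Figure D1:**
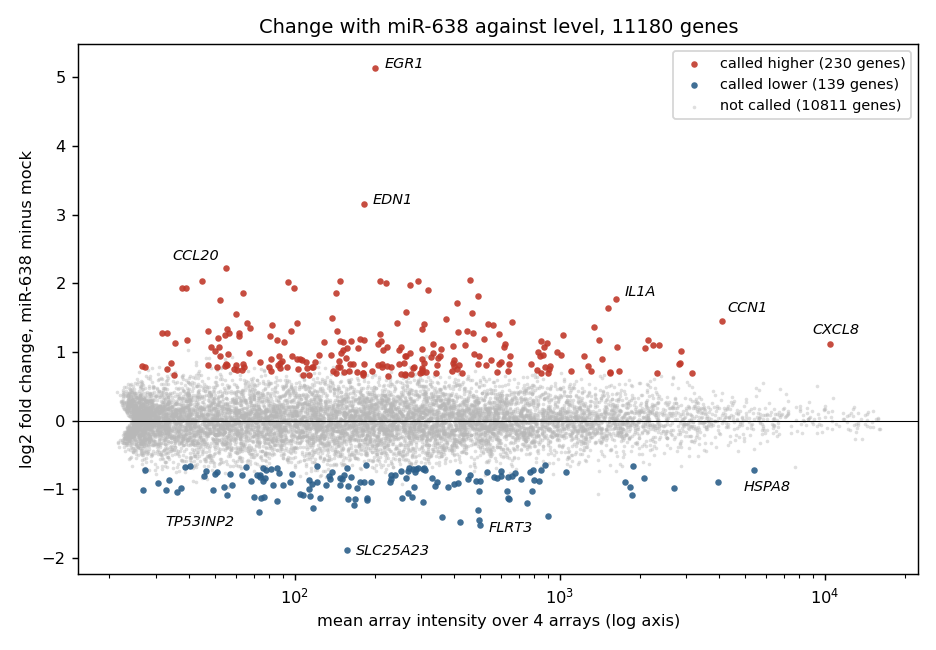
Each point is 1 of the 11180 kept genes, with its mean array intensity over the 4 arrays on a log axis and the log2 fold change of miR-638 minus mock, from the brightest probe of the gene. The 230 genes called higher and the 139 called lower are coloured and lie over the whole range of levels, with EGR1 (5.13) and EDN1 (3.15) standing above the rest.

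EGR1, a zinc finger transcription factor made within minutes of a growth or stress signal, had the largest change of all. Its intensity was 1546 and 919.8 with miR-638 and 34.9 and 33.1 in mock cells, a 35.1-fold rise (log2 difference 5.13 ± 0.21, SE, n = 2 arrays per group; adjusted p = 1.86e-05). Both mock arrays sat not far above the detection limit, and the lower miR-638 array was still far above them. EDN1, which encodes the vasoactive peptide endothelin 1, read 628 and 468 with miR-638 and 66.1 and 56.5 in mock cells (3.15 ± 0.16, adjusted p = 5.37e-05). C3orf52, a membrane protein gene, read 588 and 597 with miR-638 and 145 on both mock arrays (2.03 ± 0.11). EGF, a ligand of the epidermal growth factor receptor, read 166 and 228 with miR-638 and 59.5 and 43.8 in mock cells (1.93 ± 0.18). CD274 encodes PD-L1, the ligand that restrains T cells through PD-1, and was not detected in mock cells. With miR-638 it read 89.7 and 63.9, at least 3.18-fold above mock cells (adjusted p = 0.000422). The rest of the 20 largest rises fell into the groups described below. All but MYC stayed called whichever array was left out.

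**Figure D2:**
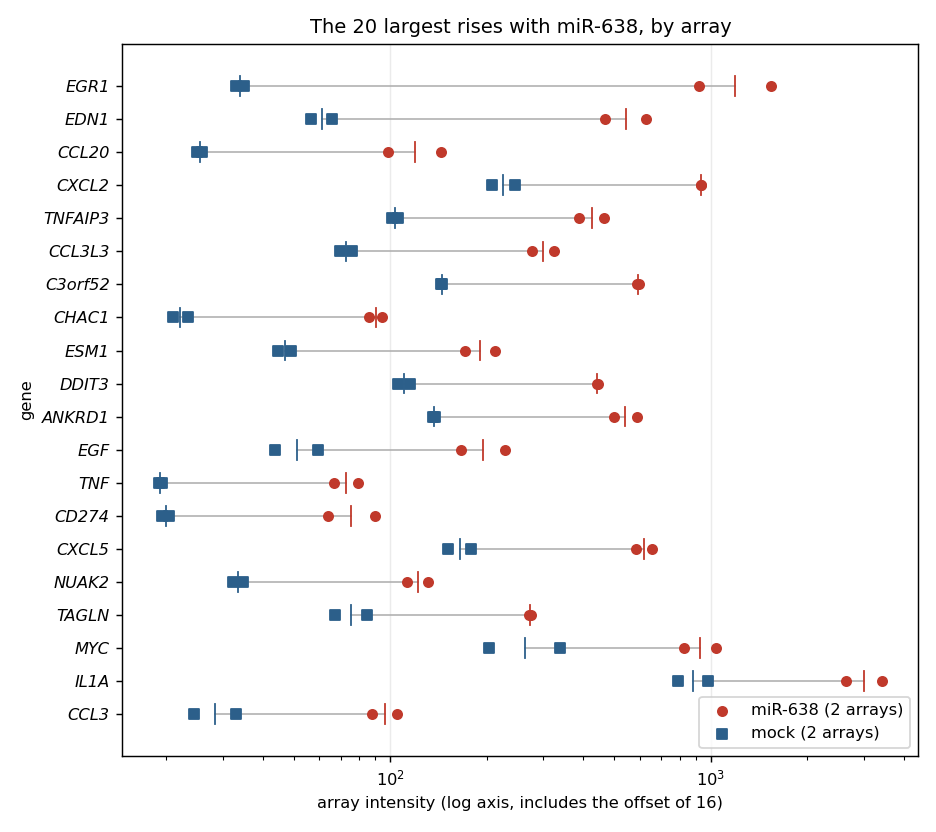
Array intensity (log axis) of the 20 genes with the largest called rises, 1 row per gene, with the 2 miR-638 arrays as circles, the 2 mock arrays as squares and each group's geometric mean as a short bar. In every row both miR-638 arrays lie to the right of both mock arrays, and the mock points of TNF, CD274 and CHAC1 lie below the detection limit.

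The next 20 rises included ERRFI1, a feedback inhibitor of the EGF receptor (2558 and 2821 with miR-638, 842 and 885 in mock cells; 1.64), and RRAS2, a relative of the RAS proteins (744 and 872 with miR-638, 309 and 239.6 in mock cells; 1.57). MRPS35, a protein of the mitochondrial ribosome, read 703 and 785 with miR-638 and 215 and 238 in mock cells (1.72). PCK2, a mitochondrial enzyme of gluconeogenesis (1.43), DPYSL3, a cytoskeletal protein of growing neurites (1.40), AMMECR1 (1.41) and the growth factor FGF1 (1.39) rose too, as did CLDN1, a tight junction protein (1.33), and ZFP69B, a zinc finger gene (1.49). The other kept probes of FGF1 gave 0.59 and 0.22, and those of AMMECR1 1.60 and 0.06. FGF1 lost its call without miR-638 replicate 1 (adjusted p = 0.0106) or 2 (0.0113), ZFP69B without miR-638 replicate 2 (0.0114), and CLDN1 without mock replicate 2 (0.0183), miR-638 replicate 2 (0.0243) or either antagomiR-638 replicate (0.0104).

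Of 20 kept immediate-early transcription factors, 5 rose, 0 fell and 15 did not pass (median 0.14, against 0.00 for all genes). After EGR1 came ATF3, a stress-induced factor of the ATF family, with 468 and 444 with miR-638 and 141 and 164 in mock cells (1.58 ± 0.12). MAFF, a small MAF protein, read 285 and 324 with miR-638 and 149 and 131 in mock cells (1.12). FOS and JUNB, which make up the dimeric factor AP-1, were dim on all 4 arrays. JUNB read 43.2 and 42.4 with miR-638 and 23.8 and 27.3 in mock cells (0.75), and FOS, not detected in mock cells, was at least 1.47-fold higher with miR-638 (adjusted p = 0.00491). EGR1 and ATF3 stayed called whichever array was left out. MAFF was lost without any of the 4 miR-638 and mock arrays (adjusted p 0.0119 to 0.0319), and FOS and JUNB without any of the 6 (0.0128 to 0.0398 and 0.0186 to 0.0441). Of 11 Krüppel-like factors, KLF4, a regulator of differentiation, rose (460 and 505 with miR-638, 178 and 203 in mock cells; 1.34), with 1.22 at its other kept probe. KLF12 (-0.90) and KLF13 (-0.89) fell, and KLF5 (0.69, adjusted p = 0.0105) and KLF6 (0.37) were not called. KLF12 lost its call without any of the 6 arrays (adjusted p 0.0125 to 0.0336) and KLF13 without any of the 4 miR-638 and mock arrays (0.0133 to 0.0235).

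Feedback genes of the MAP kinase pathway, which are switched on by the pathway and damp it, rose for 4 of 17 and fell for 0 (median 0.16). ERRFI1 is given above. DUSP1 and DUSP5 encode nuclear phosphatases that switch off MAP kinases. DUSP1 read 3369 and 3184 with miR-638 and 1476 and 1588 in mock cells (1.10), and DUSP5 read 1223 and 1333 with miR-638 and 563 and 575 in mock cells (1.17). SPRY4, a Sprouty adaptor, rose less (179 and 203 with miR-638, 122 and 101 in mock cells; 0.78). ERRFI1 stayed called whichever array was left out, and DUSP1 was lost only without miR-638 replicate 1 (adjusted p = 0.0108). DUSP5 was lost without either mock replicate (0.0109 and 0.0107) or miR-638 replicate 2 (0.0148), and SPRY4 without any of the 6 (0.0189 to 0.0679).

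Chemokines and cytokines were the list with the highest share of rises: of 23 kept genes 10 rose and 0 fell, with 13 short of the threshold and a median of 0.48. CCL20, which draws lymphocytes through CCR6, read 98.7 and 144 with miR-638 and 25.9 and 25 in mock cells (2.23 ± 0.17). CXCL2 and CXCL5, which draw neutrophils through CXCR2, read 932 on both miR-638 arrays against 207 and 246 in mock cells (2.05), and 654 and 584 with miR-638 against 179 and 152 in mock cells (1.91). Both miR-638 arrays were clear of both mock arrays for each of these 3 genes. CXCL8, of the same family, was the brightest of the 10, with 15113 and 15691 with miR-638 and 7176 and 7107 in mock cells (1.11). Their relative CXCL1 did not follow: it read 1165 and 1010 with miR-638 and 1039 and 1176 in mock cells (-0.03, adjusted p = 0.919), a gene singled out after its values were seen. TNF, the cytokine that switches on NF-kB, was not detected in mock cells and read 66.9 and 79.5 with miR-638, at least 3.06-fold higher (adjusted p = 0.000123). IL1A, an alarm cytokine of epithelial cells, read 2636 and 3426 with miR-638 and 983 and 792 in mock cells (1.77). CCL3 (1.76) and CCL3L3 (2.04), chemokine genes of near-identical sequence whose probes may read each other's transcripts, rose together, and PTX3, a soluble pattern receptor (1.42), and IL6 (1.06) rose as well. CXCL8 and IL6, the smallest of the 10 rises, were named after their values were seen. With 1 array left out, 7 to 9 of the 10 stayed called. PTX3 was lost without mock replicate 2 (adjusted p = 0.0166), either miR-638 replicate (0.0234 and 0.0334) or either antagomiR-638 replicate (0.0114), IL6 without either mock replicate (0.0145 and 0.0157) or miR-638 replicate 2 (0.0163), and CXCL8 without miR-638 replicate 2 (0.0118).

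The NF-kB list, made of the subunits of this inflammatory transcription factor and the proteins that it induces to restrain itself, had 3 rises and 0 falls among 25 (median 0.20). TNFAIP3, the ubiquitin-editing enzyme A20, read 389 and 466 with miR-638 and 101 and 106 in mock cells (2.04 ± 0.13, adjusted p = 0.000123). NFKBIZ, a nuclear IκB protein, read 1287 and 1367 with miR-638 and 621 and 591 in mock cells (1.13), and TRAF1, an adaptor of TNF receptors, read 65.5 and 93.4 with miR-638 and 33 and 34.8 in mock cells (1.21). The subunits did not pass, and NFKBIA, the classical inhibitor, read 3489 and 2630 with miR-638 and 1775 and 2105 in mock cells without passing (0.65, adjusted p = 0.0328), again a gene picked after its values were seen. TNFAIP3 stayed called whichever array was left out, NFKBIZ was lost without miR-638 replicate 2 (adjusted p = 0.0114), and TRAF1 without either mock replicate (0.0275 and 0.0255), miR-638 replicate 2 (0.0213) or either antagomiR-638 replicate (0.0122).

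In the list of 26 growth factor ligands and related secreted genes, which does not hold EGF, 6 rose, EDN1 and FGF1 among them, and 2 fell (median 0.06). ESM1, a secreted proteoglycan of activated endothelium, read 212 and 171 with miR-638 and 44.6 and 49.2 in mock cells (2.02, with 1.50 at its other kept probe). HBEGF (0.75) and FGF2 (0.72), ligands of the EGF and FGF receptors, and TGFB2, a TGF-β ligand (0.75), rose less. The other kept probe of FGF2 gave 0.12. GDF11, another ligand of the TGF-β family (-0.83, with -0.13 at its other kept probe), and TGFA, a ligand of the EGF receptor (-0.77), fell. Ligands of the same receptor thus moved in both directions. TGFA read 45.8 and 41.4 with miR-638 and 72.9 and 75.7 in mock cells. EDN1 and ESM1 stayed called whichever array was left out, while HBEGF, FGF2, TGFB2, GDF11 and TGFA lost their calls without any of the 6 (adjusted p 0.0147 to 0.0551).

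The YAP list, genes that the co-activator YAP switches on with TEAD factors when cells are spread or stretched, had 5 rises and 0 falls among 21, though its median was -0.05. ANKRD1 read 588 and 498 with miR-638 and 138 and 136 in mock cells (1.98). CCN1, a matrix protein that binds integrins, was bright on all 4 arrays, with 7256 and 6375 with miR-638 and 2350 and 2623 in mock cells (1.45). NUAK2, a kinase related to AMPK, read 113 and 132 with miR-638 and 34.7 and 32.3 in mock cells (1.86, with 1.60 at its other kept probe). CCN2, the relative of CCN1 (1346 and 1401 with miR-638, 644 and 736 in mock cells; 1.00), and F3, the tissue factor that starts clotting (0.94), rose too. The first 3 stayed called whichever array was left out, CCN2 was lost without any of the 4 miR-638 and mock arrays (adjusted p 0.016 to 0.0308) and F3 without any of the 6 (0.0168 to 0.0528). Among 21 contractile genes, 2 rose and 1 fell. TAGLN, an actin-binding protein of smooth muscle, read 275 and 271 with miR-638 and 67.2 and 84.6 in mock cells (1.86), and CALD1, caldesmon, read 1965 and 2289 with miR-638 and 899.9 and 976 in mock cells (1.18). ACTN1, the actin cross-linker α-actinin 1, moved the other way, with 1266 and 1324 with miR-638 and 2970 and 2506 in mock cells (-1.08). CALD1 lost its call without mock replicate 1 (adjusted p = 0.0102) or miR-638 replicate 2 (0.0118), and ACTN1 without any of the 4 miR-638 and mock arrays (0.012 to 0.0298).

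The regulators of the integrated stress response, in which the factor ATF4 answers a shortage of amino acids or unfolded protein, rose for 6 of 23 and fell for 1 (median 0.32). DDIT3, the death-promoting factor CHOP, read 444 and 442 with miR-638 and 106 and 115 in mock cells (2.01 ± 0.13). CHAC1, an enzyme that breaks down glutathione, was not detected in mock cells and read 94.4 and 86 with miR-638, at least 3.79-fold higher (adjusted p = 0.000123). The groups were far apart for both. SESN2, a leucine sensor that restrains mTORC1 (98.9 and 107 with miR-638, 41.8 and 29.5 in mock cells; 1.55), and CEBPG, a C/EBP partner of ATF4 (1123 and 1052 with miR-638, 398 and 404 in mock cells; 1.44), rose as well. TRIB3, a pseudokinase that restrains ATF4 and CHOP (0.94), and PPP1R15A, the phosphatase subunit that ends the response (0.84), rose less, and ATF5, a factor related to ATF4, fell (172 and 162 with miR-638, 281 and 344 in mock cells; -0.90). ATF4 itself, chosen after its values were seen, read 6721 and 7401 with miR-638 and 5118 and 4580 in mock cells (0.54) and was not called (adjusted p = 0.0243). DDIT3, CHAC1 and CEBPG stayed called whichever array was left out. SESN2 was lost without miR-638 replicate 2 (adjusted p = 0.013), TRIB3 without all but mock replicate 2 (0.0119 to 0.0283) and PPP1R15A and ATF5 without any of the 6 (0.0102 to 0.0428).

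Enzymes that make amino acids and one-carbon units, many of them known ATF4 targets, rose for 5 of 21 and fell for 0 (median 0.22). CTH, which makes cysteine, read 100.2 and 116 with miR-638 and 39.6 and 45 in mock cells (1.35, with 0.92 and 0.69 at its other kept probes). ASNS, asparagine synthetase, read 1159 and 1194 with miR-638 and 584 and 589 in mock cells (1.00), so the groups differed 2-fold with little spread. PSPH, the last enzyme of serine synthesis (0.81), MTHFD2, a mitochondrial folate enzyme (0.80), and GOT1, which makes aspartate (0.72), completed the list. Of 18 cytosolic aminoacyl-tRNA synthetases only EPRS1, which loads glutamate and proline, passed (2029 and 1907 with miR-638, 1259 and 1176 in mock cells; 0.69), although 14 of the 18 were above 0 and the median was 0.23. Of 22 amino-acid transporters, SLC3A2, the heavy chain shared by several of them, rose (0.79) and SLC1A3, a glutamate carrier, fell (-0.75). Only CTH stayed called whichever array was left out: ASNS was lost without any of the 4 miR-638 and mock arrays (adjusted p 0.0107 to 0.0135), and PSPH, MTHFD2, GOT1, EPRS1, SLC3A2 and SLC1A3 without any of the 6 (0.0123 to 0.0562).

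Within the endoplasmic reticulum list, 2 of 30 genes rose and 0 fell (median -0.03). XBP1, a transcription factor of the unfolded protein response, read 2255 and 2053 with miR-638 and 833 and 839.8 in mock cells (1.36), and CANX, the lectin chaperone calnexin, read 346 and 359 with miR-638 and 166 and 179 in mock cells (1.03). HSPA5, the main chaperone of that compartment and a gene picked after its values were seen, read 279 and 334 with miR-638 and 294 and 346 in mock cells (-0.06). CANX lost its call without mock replicate 1 (adjusted p = 0.0119) or either miR-638 replicate (0.0108 and 0.0142).

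The interferon-stimulated genes, the antiviral program, rose for 5 of 50 and fell for 0 (median 0.17). IFI27 read 177 and 157 with miR-638 and 50.2 and 77.6 in mock cells (1.42), and MX1, a GTPase that traps viral nucleocapsids, read 328 and 320 with miR-638 and 112 and 163 in mock cells (1.26). In both, the 2 mock arrays lay farther apart than the 2 miR-638 arrays. IFI6 (949 and 844 with miR-638, 382 and 475 in mock cells; 1.07), IFI44L (56.9 and 61.5 with miR-638, 28.1 and 24.3 in mock cells; 1.18) and IRF7, a transcription factor of the interferon response (121 and 120 with miR-638, 59.6 and 66.4 in mock cells; 0.94), completed the list, and the other kept probe of IFI44L gave only 0.10. With 1 array left out the 5 became 0 to 3: IFI27 was lost without either miR-638 replicate (adjusted p = 0.0288 and 0.0191) or either antagomiR-638 replicate (0.0117), MX1 and IFI6 without all but mock replicate 2 (0.0102 to 0.0372), and IFI44L and IRF7 without any of the 4 miR-638 and mock arrays (0.0105 to 0.0311). Of 19 genes of MHC class I presentation only TAPBP, the peptide loading chaperone tapasin, changed, and it fell (260 and 281 with miR-638, 516 and 542 in mock cells; -0.97). Its other kept probe, near the detection limit, gave 0.18, and the call was lost without any of the 4 miR-638 and mock arrays (0.0177 to 0.0288).

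MYC, the growth-promoting transcription factor, read 1040 and 824 with miR-638 and 203 and 339.8 in mock cells at its brighter probe (1.82 ± 0.22, adjusted p = 0.00172). At its other kept probe it read 953 and 942 with miR-638 and 241 and 193 in mock cells (2.13 ± 0.14), so both probes rose. Of 9 kept genes of its network, MXD1, which competes with MYC for MAX, rose (215 and 219 with miR-638, 99.2 and 114 in mock cells; 1.03), while MXD4, of the same antagonist family, fell (238 and 207 with miR-638, 529 and 653 in mock cells; -1.41). MAX (0.08), MNT (-0.03) and MGA (0.33) were not called. The brighter MYC probe was lost without miR-638 replicate 1 (adjusted p = 0.0218) or 2 (0.0118), MXD1 without mock replicate 1 (0.0136) or either miR-638 replicate (0.014 and 0.0158), and MXD4 without miR-638 replicate 2 (0.0118). Of the 4 alpha-arrestins, TXNIP, which binds thioredoxin and limits glucose uptake, rose (639 and 604 with miR-638, 207 and 240.2 in mock cells; 1.48) and ARRDC2 fell (-0.88, with -0.28 at its other kept probe). The ARRDC2 call was lost without any of the 6 arrays.

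Of 15 kept genes of the BCL2 family, which sets the threshold for cell death, 1 rose and 0 fell (median 0.03). This was PMAIP1, the BH3-only death activator NOXA (880.1 and 927 with miR-638, 369 and 322 in mock cells; 1.39, with 1.33 at its other kept probe). GADD45A, a growth arrest protein named after its values were seen, rose too (3208 and 3263 with miR-638, 1363 and 1520 in mock cells; 1.17, with 1.73 at its other kept probe). CDKN1A, MDM2 and BAX, genes that the study measured or discussed, did not pass. The study measured CDKN1A and BAX as protein after antagomiR-638, so these transcript values with the mimic are no check of its result. CDKN1A, the cell-cycle brake p21, read 5203 and 5752 with miR-638 and 6987 and 6397 in mock cells (-0.29, adjusted p = 0.161), MDM2 read 52.1 and 40.8 with miR-638 and 47.8 and 42.9 in mock cells (0.03), and BAX read 409 and 269 with miR-638 and 301 and 630.4 in mock cells (-0.39). For MDM2 and BAX the arrays of the 2 groups overlapped. Of 20 death receptor and caspase genes 0 were called. With no adjustment, 4 were higher and 6 lower at a p under 0.05 (limma), against 15.4% and 13.8% of all genes. GADD45A and PMAIP1 stayed called whichever array was left out.

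Among the falls, SLC25A23, a calcium-regulated carrier of ATP in the mitochondrial inner membrane, led with 74.9 and 90 with miR-638 and 283 and 324 in mock cells (-1.88 ± 0.13, adjusted p = 0.00015). Its family moved in both directions: of 34 kept SLC25 carriers, SLC25A25 (0.95) and SLC25A24 (0.69), which carry the same substrates, rose, and SLC25A42, a coenzyme A carrier (-0.66), fell. HAS3, which spins the matrix polymer hyaluronan, read 335 and 291 with miR-638 and 787 and 751 in mock cells (-1.30). FOXD2, a forkhead transcription factor, read 76.9 and 74.5 with miR-638 and 175 and 190 in mock cells (-1.27), and its neighbour FOXD2-AS1, a long noncoding RNA, fell with it (20.4 and 24.3 with miR-638, 39.3 and 44.7 in mock cells; -0.91). Both mock arrays were above both miR-638 arrays in each. RTL8C, a gene derived from a retrotransposon (206 and 197 with miR-638, 487 and 435 in mock cells; -1.19), and RAB27B, a GTPase of secretory vesicles (114 on both miR-638 arrays, 257 and 244 in mock cells; -1.13), fell as well. FTH1P3 (-1.45), a ferritin pseudogene whose probe may read other ferritin transcripts, MAGEE1 (-1.33), LYPD1 (-1.14) and P4HTM, a prolyl hydroxylase of the endoplasmic reticulum (-1.14), were also among the 20, as were PITX1, a homeobox factor (-1.15), KDELR1, which returns escaped chaperones to the endoplasmic reticulum (-1.13), PIP5K1C, a lipid kinase (-1.13), and MIR9-2HG, the host of another microRNA (-1.13). Of the 20 largest falls, 9 stayed called whichever array was left out: SLC25A23, FLRT3, TENM3, HSPA1B, HAS3, FOXD2, RTL8C, TP53INP2 and RAB27B.

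**Figure D3:**
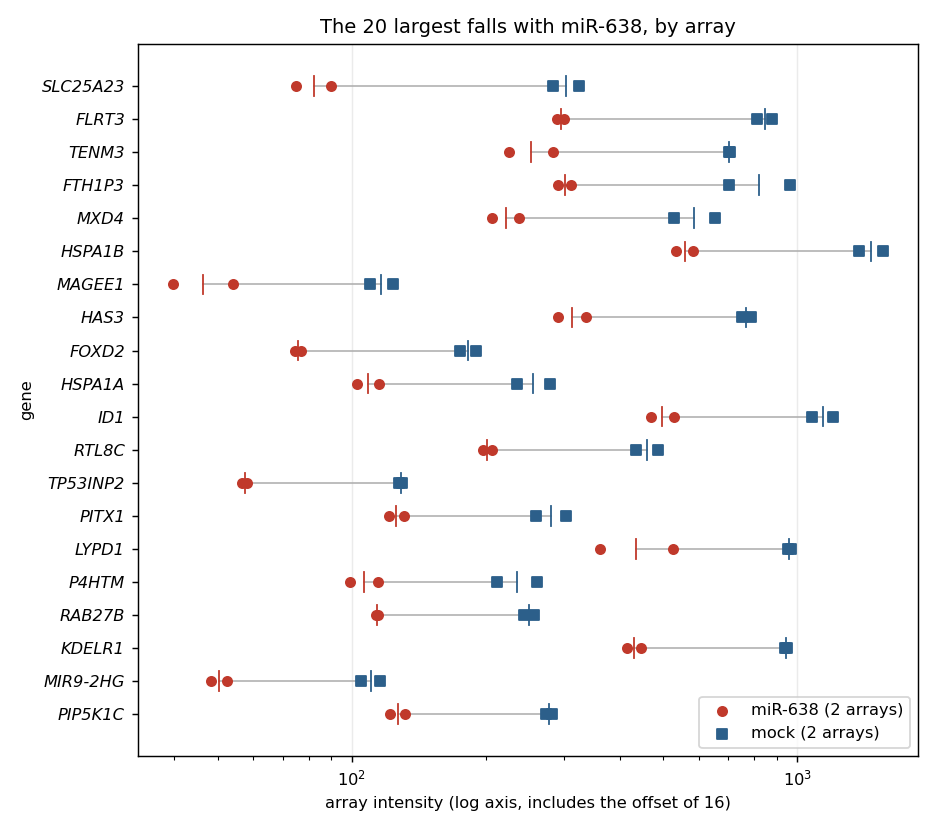
Array intensity (log axis) of the 20 genes with the largest called falls, 1 row per gene, with the 2 miR-638 arrays as circles, the 2 mock arrays as squares and each group's geometric mean as a short bar. In every row both miR-638 arrays lie to the left of both mock arrays, and no gap is as wide as those of EGR1 or EDN1 among the rises.

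The other calls among these genes were lost on leaving out 1 or more arrays. Without mock replicate 1 the adjusted p was 0.0113 for MAGEE1, 0.0316 for LYPD1, 0.0113 for KDELR1, 0.0109 for PIP5K1C, 0.0166 for FOXD2-AS1, 0.0155 for SLC25A25, 0.0535 for SLC25A24 and 0.0362 for SLC25A42. Without mock replicate 2 it was 0.0208 for MAGEE1, 0.0159 for PITX1, 0.0391 for LYPD1, 0.0208 for P4HTM, 0.0127 for KDELR1, 0.0135 for PIP5K1C, 0.0401 for FOXD2-AS1, 0.0208 for SLC25A25, 0.0373 for SLC25A24 and 0.0671 for SLC25A42. Without miR-638 replicate 1 it was 0.014 for FTH1P3, 0.0152 for MAGEE1, 0.0185 for PITX1, 0.0126 for P4HTM, 0.0108 for KDELR1 and MIR9-2HG, 0.0163 for PIP5K1C, 0.0375 for FOXD2-AS1, 0.014 for SLC25A25, 0.0376 for SLC25A24 and 0.0556 for SLC25A42. All of these genes kept their direction. Without miR-638 replicate 2 it was 0.0116 for FTH1P3, 0.0135 for PITX1, 0.0263 for LYPD1, 0.0233 for P4HTM, 0.016 for KDELR1, 0.0118 for PIP5K1C, 0.0155 for FOXD2-AS1, 0.0224 for SLC25A25, 0.058 for SLC25A24 and 0.0494 for SLC25A42, and without either antagomiR-638 replicate 0.0162 for LYPD1, 0.0144 for FOXD2-AS1, 0.0231 for SLC25A24 and 0.0221 for SLC25A42.

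The next 20 falls held structural and secreted proteins as well as transcription factors. LMNA, which encodes the nuclear lamins A and C, read 454 and 437 with miR-638 and 788 and 1041 in mock cells (-1.02), and TGM2, the matrix cross-linking enzyme transglutaminase 2, read 494 and 611 with miR-638 and 1190 and 1051 in mock cells (-1.03). HTRA1, a secreted protease (85.1 and 82.9 with miR-638, 182 and 184 in mock cells; -1.12), FAM20C, a kinase of secreted proteins (-1.11), and S100A2, a calcium-binding protein (-1.13), fell too. LHX6, a homeobox factor (-1.11), TOB1, an antiproliferative adaptor of deadenylation (-1.09), SERTAD3 (-1.07) and the RNA-binding genes MEX3D (-1.08) and RBPMS2 (-0.99) made up a further part. AIM2, a sensor of cytosolic DNA, read 364 and 332 with miR-638 and 716 and 706 in mock cells (-1.03). IER5L and PLEKHS1 were detected on both mock arrays and on neither miR-638 array, and were at least 1.95-fold (adjusted p = 0.00768) and at least 1.59-fold lower (0.00307). None of these 20 stayed called whichever array was left out. Without mock replicate 2, all of those named here but SERTAD3 were lost (adjusted p 0.0107 to 0.059), and without mock replicate 1 TGM2, FAM20C, LHX6, AIM2, RBPMS2, IER5L, PLEKHS1 and SERTAD3 (0.0111 to 0.0292). Without miR-638 replicate 1 all but AIM2 and RBPMS2 were lost (0.0108 to 0.0408), without miR-638 replicate 2 all but FAM20C and LHX6 (0.0118 to 0.054), and without either antagomiR-638 replicate LMNA, TGM2, MEX3D, RBPMS2, IER5L and SERTAD3 (0.0112 to 0.0179).

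Heat-shock chaperones, which hold and refold proteins of the cytosol, fell for 5 of 31 and rose for 0 (median -0.09). HSPA1B read 584 and 534 with miR-638 and 1374 and 1556 in mock cells (-1.39), and HSPA1A read 103 and 115 with miR-638 and 278 and 235 in mock cells (-1.23). These inducible HSP70 genes are near-identical copies, so their probes may read both transcripts. HSPA8, the constitutive HSP70, was much brighter and also fell (3917 and 4556 with miR-638, 6806 and 7041 in mock cells; -0.71, with -0.83 at its other kept probe). DNAJB1, the HSP40 partner of the inducible HSP70s (464 and 537 with miR-638, 926 and 817 in mock cells; -0.80), and DNAJB4, its relative (-0.88), fell with them. Of the 31, 14 lay above 0. With no adjustment 6 were higher and 9 lower at a p under 0.05 (limma), against 15.4% and 13.8% of all genes. HSPA1B stayed called whichever array was left out, HSPA1A lost its call without mock replicate 1 (adjusted p = 0.016) or either miR-638 replicate (0.0213 and 0.0135), and HSPA8, DNAJB1 and DNAJB4 without any of the 6 (0.0125 to 0.058).

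Several adhesion genes of the teneurin family and its partners fell. Teneurins are large transmembrane proteins that bind latrophilin receptors, and FLRT proteins bind the same receptors. Of 10 kept genes, 4 fell and 0 rose, with a median of -0.34. FLRT3 read 299.7 and 289 with miR-638 and 814 and 876 in mock cells (-1.52 ± 0.11, adjusted p = 0.000202), and TENM3 read 282 and 225 with miR-638 and 703 and 704 in mock cells (-1.48 ± 0.13). TENM4 (249 and 244 with miR-638, 434 and 446 in mock cells; -0.83) and the latrophilin ADGRL2 (207 and 217 with miR-638, 340.1 and 344 in mock cells; -0.69) fell less, and ADGRL1 (-0.33), FLRT2 (-0.35), TENM1 (-0.30) and ADGRL3 (0.04) were not called. FLRT3 and TENM3 stayed called whichever array was left out, and TENM4 and ADGRL2 were lost without any of the 6 (adjusted p 0.0102 to 0.0462). Other adhesion lists held few calls: 0 of 14 integrins (median -0.17), 0 of 3 cadherins, and, among 8 hyaluronan genes, HAS3 alone. With no adjustment, 0 integrins were higher and 4 lower at a p under 0.05 (limma), against 15.4% and 13.8% of all genes. For the cadherins it was 0 and 0. CD44, the hyaluronan receptor, stood at -0.06.

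Genes of BMP and TGF-β feedback fell for 2 of 22 and rose for 0 (median -0.14). Both were inhibitors of differentiation that BMP signals switch on: ID1 read 469 and 529 with miR-638 and 1080 and 1201 in mock cells (-1.19, with -1.09 at its other kept probe), and ID3 read 95.5 and 82.3 with miR-638 and 152 and 179 in mock cells (-0.90). ID1 lost its call without mock replicate 2 (adjusted p = 0.0107) or miR-638 replicate 1 (0.0118), and ID3 without any of the 6 arrays (0.0136 to 0.0401). In the Wnt list 2 of 18 fell and 1 rose (median -0.23). DKK1, a secreted Wnt antagonist, read 1241 and 1408 with miR-638 and 2710 and 2442 in mock cells (-0.96), and FZD8, a Wnt receptor, fell (-0.93), whereas DKK3, a distant relative of DKK1, rose (3945 and 4076 with miR-638, 2431 and 2513 in mock cells; 0.70). DKK1 was lost without any of the 4 miR-638 and mock arrays (0.0133 to 0.0256), FZD8 and DKK3 without any of the 6 (0.0144 to 0.0439). Of 20 HOX genes, which set position along the body axis, HOXC13 (117 and 97.5 with miR-638, 207 and 202 in mock cells; -0.93) and HOXB5 (157 and 194 with miR-638, 306 and 299 in mock cells; -0.79) fell, 0 rose, and 15 of the 20 were below 0. HOXC13 stayed called without miR-638 replicate 1 and was lost without each of the other 5 arrays (0.0112 to 0.0253), and HOXB5 was lost without any of the 6 (0.0155 to 0.0485).

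TFAP2A, the AP-2α transcription factor of the neural crest and a gene that the study followed up, read 315 and 266 with miR-638 and 525 and 572 in mock cells (-0.92 ± 0.13, adjusted p = 0.00315), with -0.70 at its other kept probe. TFAP2C, its relative, read 732 and 705.3 with miR-638 and 1087 and 1394 in mock cells and missed the threshold (-0.78, adjusted p = 0.0107). Of 12 kept AP-2 factors and targets, TFAP2A was the only 1 called, with a median of -0.33. Its call was lost without any of the 6 arrays (0.0115 to 0.0314). TP53INP2, which shuttles from the nucleus to autophagosomes, read 58.1 and 56.8 with miR-638 and 130 and 128 in mock cells (-1.16 ± 0.11, adjusted p = 0.000644) and stayed called whichever array was left out. It was the only 1 of 41 autophagy genes called. With no adjustment, 6 of these were higher and 1 lower at a p under 0.05 (limma), against 15.4% and 13.8% of all genes. The study's candidate targets were chosen on these arrays, so their direction is no independent evidence: all 27 kept candidates were below 0 (median -0.33, range -1.16 to -0.02), and TP53INP2 and TENM4 were the 2 called. C5orf15 came nearest (791 and 732 with miR-638, 1146 and 1185 in mock cells; -0.62, adjusted p = 0.0117), and ITGA3, the integrin α3 subunit (-0.48, adjusted p = 0.0296), and SLC2A1, the glucose transporter GLUT1 (-0.42), were not called.

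In the G2/M list 1 of 66 genes rose and 3 fell (median -0.07). With no adjustment, 5 were higher and 22 lower at a p under 0.05, against 15.4% higher and 13.8% lower of all genes. CDC25B, a phosphatase that starts mitosis (656 and 664 with miR-638, 1069 and 1111 in mock cells; -0.72), KIF20A, a kinesin of cytokinesis (616 and 615 with miR-638, 1005 and 1021 in mock cells; -0.72), and GTSE1 (-0.86) fell, while the chromosome kinesin KIF4A rose (194 and 195 with miR-638, 115 and 111 in mock cells; 0.78). In the G1/S list 2 of 50 rose and 0 fell: RRM2, a subunit of the enzyme that makes deoxynucleotides (0.84), and E2F7, a repressor of the E2F family (0.70). All 6 of these calls were lost without any of the 6 arrays (adjusted p 0.0113 to 0.058). The 6 kept CDK inhibitors were all below 0 (median -0.37, range -0.66 to -0.20) and 0 were called (limma; with no adjustment, 0 were higher and 5 lower at a p under 0.05). CDKN1C, the inhibitor p57, read 50.8 and 42.6 with miR-638 and 73.7 and 72.8 in mock cells (-0.66, adjusted p = 0.0534).

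Long noncoding RNAs were dimmer than coding ones, with a median intensity of 30.6 against 176, and were called about as often as all genes (3.3%). Of 204 kept long noncoding RNAs 4 rose and 2 fell, and of 109 small nucleolar RNAs, 10 small nuclear RNAs and 4 Y RNAs 0 were called. Of the 4 rises 3 were in host genes of small nucleolar RNAs, transcripts that turn over fast and whose introns hold these RNAs. In this list 3 of 14 rose, 0 fell, and the median was 0.48, as high as that of the chemokines. SNHG1 read 2508 and 2277 with miR-638 and 1151 and 1131 in mock cells (1.07), SNHG15 read 626 and 665 with miR-638 and 284 and 319 in mock cells (1.10), and SNHG32 read 2876 and 3055 with miR-638 and 1828 and 1825 in mock cells (0.70). The other long noncoding RNA that rose was SLC12A2-DT (58.2 and 66.6 with miR-638, 34.1 and 37 in mock cells; 0.81), named after its values were seen. SNHG6 (0.65), SNHG17 (0.61) and EPB41L4A-AS1 (0.60) were not called. SNHG1 was lost without either mock replicate (adjusted p = 0.0103 and 0.0119) or miR-638 replicate 1 (0.014), SNHG15 without mock replicate 1 (0.0104) or miR-638 replicate 2 (0.0131), and SNHG32 and SLC12A2-DT without any of the 6 (0.0157 to 0.0453). Among 9 genes of the metallothionein list 3 rose and 0 fell (median 0.30): MT1H (121 and 126 with miR-638, 48 and 57.3 in mock cells; 1.24), MT1F (834 and 1012 with miR-638, 462 and 389 in mock cells; 1.12) and the zinc exporter SLC30A1 (0.79). Metallothionein genes are near copies of each other, and MT2A (-0.17), MT1X (0.30) and MT1G (-0.40) were not called. MT1H was lost without miR-638 replicate 2 (0.0113), MT1F without mock replicate 2 or miR-638 replicate 2 (0.0208 each), and SLC30A1 without any of the 6 (0.0168 to 0.0512).

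The remaining lists held few calls. Of all genes, 2.06% were called higher and 1.24% lower, and 15.4% and 13.8% passed an unadjusted p under 0.05 (limma). None was called among 51 lysosome genes (limma; with no adjustment, 4 were higher and 11 lower at a p under 0.05, median -0.12), 29 cholesterol genes (2 and 6; -0.16), 30 proteasome subunits (1 and 1; 0.01), 24 histone genes (2 and 2; -0.09), 18 genes of the microRNA machinery (2 and 0; -0.06) or 10 melanocyte genes (1 and 4; -0.03). Among 108 nuclear noncoding and antisense RNAs FOXD2-AS1 was the only 1 called, among 24 genes of glutathione and NRF2 CHAC1, and among 23 genes of the invasive melanoma state DKK1. At an unadjusted p under 0.05 (limma), 12 were higher and 16 lower in the first list, 6 and 7 in the glutathione list, and 1 and 7 in the invasive list. ADAMTS1, a secreted matrix protease, rose (937 and 867 with miR-638, 468 and 468 in mock cells; 0.95) and PLAT, the tissue plasminogen activator, fell (393 and 431 with miR-638, 671 and 709 in mock cells; -0.75) among 18 matrix proteases. PFKFB4, which steers glycolysis, fell (-0.86; 1 of 35 genes of glycolysis and hypoxia), and NFIL3, a repressor of the clock, rose (0.82; 1 of 12 circadian regulators). Ribosomal proteins (2 of 74 higher, RPS23 and RPL22L1), oxidative phosphorylation (1 of 70, NDUFB5, 1.06), nucleolar factors (1 of 50, NOC3L) and the spliceosome (1 of 52, SNRPD1) held 1 or 2 rises each, and the endocytosis list had 1 fall among 53, the late endosomal GTPase RAB7A (1329 and 1261 with miR-638, 2313 and 2483 in mock cells; -0.89). NDUFB5, a subunit of respiratory complex I, read 3033 and 3030 with miR-638 and 1411 and 1503 in mock cells. Of 352 numbered zinc finger genes, 5 rose and 2 fell, with a median of 0.08. PLAT, PFKFB4, NFIL3, RPS23, RPL22L1, NOC3L and SNRPD1 lost their calls without any of the 6 arrays (adjusted p 0.0104 to 0.0662), ADAMTS1 without any of the 4 miR-638 and mock arrays (0.0244 to 0.037), NDUFB5 without mock replicate 1 (0.0112) or either miR-638 replicate (0.0119 and 0.0128), and RAB7A without any of the 4 miR-638 and mock arrays (0.0252 to 0.0423).

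**Figure D4:**
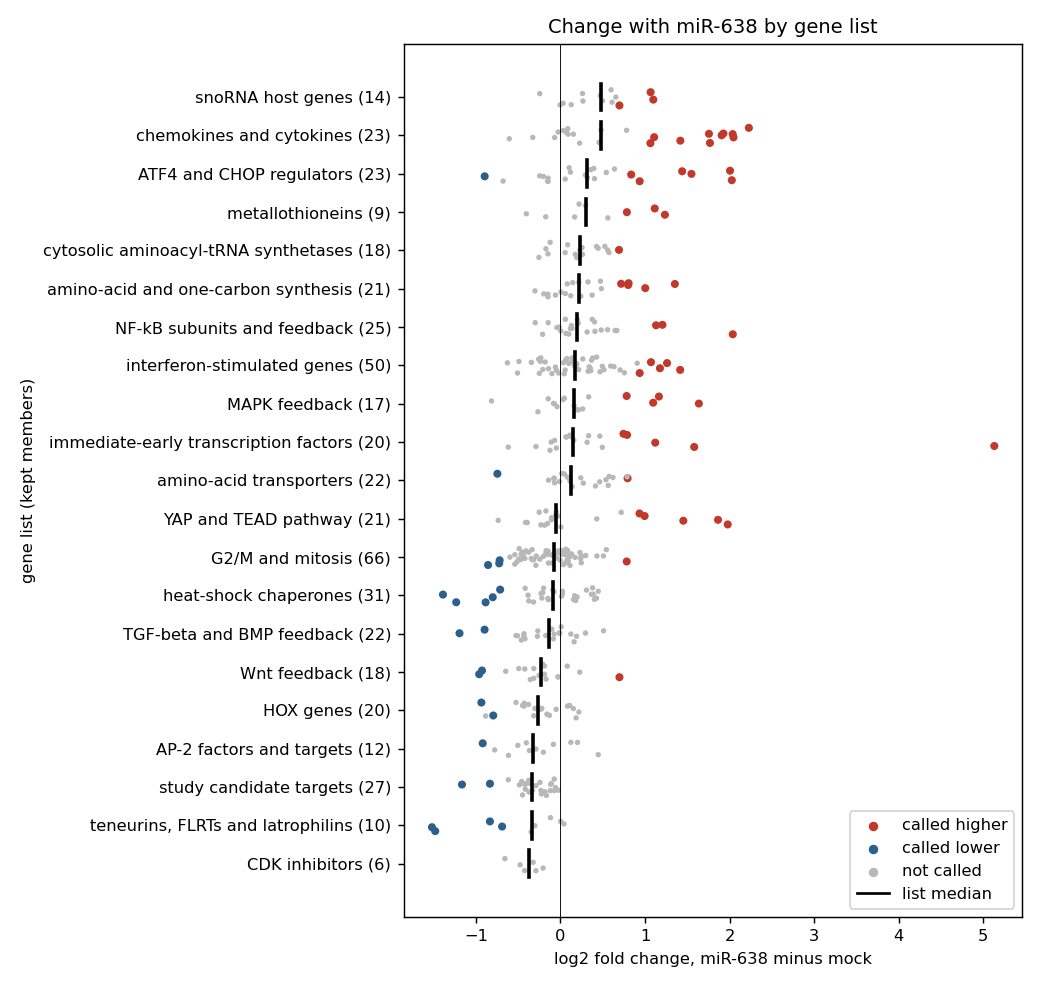
Log2 fold changes of miR-638 minus mock for the kept members of 21 gene lists, ordered by the list median (black bar), with called members coloured. The medians run from 0.48 for snoRNA host genes and for chemokines to -0.37 for the CDK inhibitors, and EGR1 (5.13) lies far to the right of all other members.

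Probes of the same gene mostly moved together. Of the called genes 107 had 2 or more kept probes, and 116 of their 122 other probes lay in the same direction, 42 of them called. A probe in the other direction was found for 6 called genes. RBBP4, a histone-binding protein, fell at its brightest probe (166 and 180 with miR-638, 311 and 310 in mock cells; -0.85) and gave -0.11 and 0.28 at the others. SLC25A24 gave 0.69 and -0.33, TAPBP -0.97 and 0.18, TGM2 -1.03, -0.005 and, at its dimmest probe, 0.11, SERTAD3 -1.07 and 0.02, and ASB7, a subunit of a ubiquitin ligase, 0.75, 0.39 and -0.11. These 6 calls hold for 1 probe each. The same is true of other genes whose further probes were not called, among them YWHAB, FGF1, FGF2, NRP1, ASNS, TFAP2A, IFI6 and IRF7. RBBP4 and ASB7 lost their calls without any of the 6 arrays (adjusted p 0.0104 to 0.0479). Besides TNF, CD274, CHAC1 and FOS, 3 called genes were detected on both miR-638 arrays and neither mock array: INHBE, a hormone subunit of the TGF-β family, was at least 2.14-fold higher, LAT2, a membrane adaptor of immune cells, at least 2.06-fold and COX11, an assembly factor of cytochrome oxidase, at least 1.50-fold. PSG9, a glycoprotein of pregnancy, was detected in mock cells alone and was at least 1.47-fold lower. INHBE lost its call without miR-638 replicate 2 (adjusted p = 0.0114), LAT2 without any of the 4 miR-638 and mock arrays (0.0108 to 0.0385) and COX11 and PSG9 without any of the 6 (0.0127 to 0.0511).

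Among the promoters of genes that rose, 5.70% held a CARE (TGATGNAAN; 11 of 193), against 2.59% of those that fell (3 of 116), 1.80% of all kept genes and 3.67% of all 27305 RefSeq promoters. The CArG box stood in 2.59% of the promoters of rises and 0.862% of those of falls (1.09% of kept genes, 1.29% of all), and the CRE (TGACGTCA), the cAMP response element, in 5.70% and 1.72% (3.50%, 1.98%). The AP-1 motif (TGANTCA) was found in 7.25% of rises and 8.62% of falls (4.40%, 7.76%), the NF-kB site in 14.5% and 11.2% (12.9%, 10.8%), the E-box (CACGTG), which MYC and MAX bind, in 10.4% and 8.62% (10.6%, 7.43%) and the ISRE (TTTC and TTTC with 2 bases between) in 5.18% and 6.03% (2.82%, 3.65%). Of 10 chemokine and cytokine genes that rose, 5 held an NF-kB site, against 7 of the 18 kept members with a promoter. All 4 of the interferon-stimulated genes that rose and had a promoter held an ISRE, and so did 25 of 40 kept members. A CARE stood in 1 of the 6 ATF4 and CHOP regulators that rose, CHAC1, and in 2 of 19 kept members. Among the enzymes of amino-acid and one-carbon synthesis it stood in 2 of 4 that rose and 3 of 17 kept members. A CArG box stood in 1 of the 5 immediate-early factors that rose, EGR1, and in 2 of 16 kept members. These counts are descriptions of the letters in the window and were not tested. Sites that match the miR-638 seed in messenger RNAs were not analysed here.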

How the data were processed

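RNA of 6 SK-Mel-147 samples, 2 each given miR-638, antagomiR-638 or mock treatment, was read on Illumina HumanHT-12 v4 arrays. The authors used lumi in R for normalization, per the labels (version not given in the sources used here). The deposited intensity values are background-subtracted, with 26.2% below 0, and already quantile-normalized: their sorted columns differ by at most 0.349 units. A detection p-value was deposited for each probe and array. The authors also deposited a table of processed intensities, used as an alternative. Because all arrays share 1 distribution, a shift of all transcripts cannot be seen.

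Here the intensities were background-modelled with limma 3.58.1 in R 4.3.3 (normexp from the detection p-values, offset 16), quantile-normalized and taken to log2, which draws changes of dim probes toward 0. Of 47319 probes 30112 had 1 gene symbol, 8 several and 17199 none, and 30073 matched RefSeq through their Entrez identifier. The kept probe of highest mean level stood for its gene. limma was fitted to all 6 arrays (3 residual and 6.31 prior degrees of freedom), the contrast of miR-638 and mock was tested on both sides and adjusted by the Benjamini-Hochberg method over all kept probes, and genes at 0.01 or less were called. Where a group had no detected array, the fold is a bound against the detection limit of those arrays. The fit was tested on simulated data.

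The genes named are the 20 largest changes each way with part of the next 20, up to 6 called members of each of 55 lists and any member of lists under 17 kept genes, genes the study followed up or discussed, genes detected in 1 group alone, and genes whose probes disagree. Others are said to be chosen after their values were seen. The members and lists were chosen with earlier results of these data known. Same-numbered arrays did not deviate together (correlation of deviations -0.07 between miR-638 and mock), so the numbers were not taken as pairs. Promoters and the microRNA come from RefSeq (GRCh38.p14), with a promoter for 9065 of the 11180 genes. Alternatives changed the background model, scaling, filter, threshold, fit, test and probe choice and left out each array. 3 candidate targets of the study were not analysed here. Some further genes and 1 list are not reported here.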

Additional observations from a re-analysis of the deposited data

How the results depend on the processing

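The 230 rises and 139 falls kept a count within 1.5 times under other scalings, stricter detection filters, array weights and the median of a gene's probes. The other settings moved them, given as rises and falls: 432 and 338 with an offset of 50, 468 and 376 with an intensity trend and a robust prior, 714 and 621 at an adjusted p of 0.05, 95 and 32 with no detection filter (20045 genes tested), 99 and 38 at 2-fold or more, 106 and 47 with the 4 arrays alone, 13 and 8 from the processed value table, 3 and 1 with a floor of 16 in place of the background model, and 0 and 0 without moderation. The processed values were also raised to a floor of 16, and the cause of their lower counts was not tested. With the floor in place of the background model, 1979 kept probes had the same value on all 6 arrays, and the prior degrees of freedom were 0.576. An alternative chosen after seeing the data, the floor with only probes above it on all 6 arrays, called 203 and 131 of 9099 genes, of which 194 and 114 were also called by the main setting. Leaving out 1 array gave 49 to 106 rises and 14 to 47 falls. With the replicate number as a block, 146 rose and 73 fell, all of them among the 230 and 139; no label ties the same numbers together and they did not pair the samples (correlations of -0.07 to -0.05). No called gene named in the text changed direction under a setting that kept it, but many of their calls were lost. Of the 172 named called genes, 0 stayed called with the floor in place of the background model, and 0 without moderation. These losses include EGR1 and the other named genes that stayed called whichever array was left out. With the processed values, 9 of the 172 stayed called. With the floor and only probes above it on all 6 arrays, 141 stayed called and 10 did not. Named genes that were not called were not followed across settings. The number of arrays limits the precision (median SE 0.13 on the log2 scale).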

Other observations

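Of the 369 called genes, 245 were in none of the 55 lists, and those named here were chosen after their values were seen. Several rises were bright and had little spread: SPP1, the secreted phosphoprotein osteopontin, read 1248 and 1266 with miR-638 and 591 and 609 in mock cells (1.07), YWHAB, a 14-3-3 adaptor, 3402 and 3535 with miR-638 and 1646 and 1579 in mock cells (1.11), and ETF1, the factor that ends translation, 3774 and 4377 with miR-638 and 2013 and 2018 in mock cells (1.01). The other kept probe of YWHAB gave only 0.35 and was not called (190 and 201 with miR-638, 164 and 143 in mock cells). NLRP3, an inflammasome sensor, read 678 and 616 with miR-638 and 287 and 245 in mock cells (1.29), and PDE4D, which breaks down cAMP, 95.3 and 97 with miR-638 and 41.5 and 37.6 in mock cells (1.28). NLRP3 and PDE4D stayed called whichever array was left out (limma). SPP1 was lost without miR-638 replicate 2 (adjusted p = 0.0114), YWHAB without mock replicate 2 (0.011) or either miR-638 replicate (0.0105 and 0.013), and ETF1 without any of the 4 miR-638 and mock arrays (0.014 to 0.0278).

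The falls outside the lists included both chains of HLA-DM, which loads peptides on MHC class II: HLA-DMA read 524 and 522 with miR-638 and 838 and 931 in mock cells (-0.76), and HLA-DMB 349 and 323 with miR-638 and 587 and 619 in mock cells (-0.84). They also held CAT, the peroxide-splitting enzyme catalase (430.2 and 419 with miR-638, 799 and 711 in mock cells; -0.83), the cytochrome b5 reductases CYB5R3 (1929 and 1900.2 with miR-638, 3619 and 3931 in mock cells; -0.98) and CYB5R2 (-0.88), and the tyrosine kinases CSK (-0.81) and ABL1 (-0.82). NRP1, a co-receptor of semaphorins and VEGF, read 594 and 595 with miR-638 and 1013 and 978 in mock cells (-0.74). Its other kept probe gave -0.26 and was not called. CYB5R3 lost its call without mock replicate 2 (adjusted p = 0.0156) or either miR-638 replicate (0.014 and 0.0157), and the other 7 without any of the 6 arrays (0.0101 to 0.0596; limma). Among 35 kept microRNA genes, MIR302C was the only 1 called (139 and 151 with miR-638, 72.5 and 85.5 in mock cells; 0.88), a call lost without any of the 6 arrays (0.0132 to 0.0353).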
